A study of Mus musculus with 8 samples.

Results

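The complement genes described here are C1qa, C1qb, C1qc, C3, C4b, C3ar1, C5ar1, Serping1 and Cd59a. They were chosen by gene symbol as components, receptors and regulators centred on the classical pathway, and 9 of 9 were found among the 29442 genes of the deposited count table. The table holds bulk RNA-seq of ventral hippocampus from C57BL/6 J females aged 6 to 8 weeks. Of these mice, 4 had received dehydroepiandrosterone (DHEA), an adrenal androgen precursor, at 30 mg/kg/day by subcutaneous injection for 21 days, and 4 had received sesame oil, the vehicle, in the same way. Each library is named by its deposited title. HipR3, HipR4, HipR7 and HipR11 carry the label DHEA, and HipR5, HipR9, HipR10 and HipR16 carry the label sesame oil. Which of the 2 sets of libraries came from the treated mice rests on these labels alone and could not be settled here, so the sign of every difference below is uncertain, whereas its size is not affected. Higher and lower in the DHEA libraries means in the libraries labelled DHEA throughout. Total counts were 35748416 to 38038361 in the DHEA libraries and 31483772 to 35418297 in the sesame oil libraries, so that 3 counts correspond to 0.0789 to 0.0953 CPM (counts scaled to a library total of 1000000). On the first principal component of the 16813 genes averaging 10 counts or more, which held 33.4% of the variance, HipR3 (21.8) and HipR4 (35.6) lay apart from the other 6 libraries (-12.7 to -3.62). Differences of the C1q chains, C3, C4b, Cfp, Itgam, Csmd2 and the marker lists are given with and without these libraries where they rest on them. The share of counts on 13 mitochondrial genes was 7.29% to 9.34% in the DHEA libraries and 6.37% to 7.23% in the sesame oil libraries. The correlation over genes between GC content and the deviation of log2(CPM + 0.5) from the mean of the libraries was -0.11 to -0.0045 in the DHEA libraries and 0.056 to 0.14 in the sesame oil libraries, without overlap. Markers of hippocampal neurons were present in every library, with a summed level of 2235 to 2392 FPKM (fragments scaled to transcript length and library total) over 10 genes that include Neurod6 and Prox1.

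Complement is a protein cascade of innate immunity. In the classical pathway, C1q binds a target and activates the proteases C1r and C1s, which cleave C4 and C2. The resulting enzyme cleaves C3, whose fragments tag the target and signal through C3ar1, while the C5 fragment signals through C5ar1. Serping1 encodes C1 inhibitor, which blocks C1r and C1s, and Cd59a encodes a membrane protein that blocks the last step, formation of the membrane attack complex. In the brain, microglia are the main source of C1q, astrocytes express C3 and C4, and C1q and C3 are known for the tagging of synapses that microglia then remove.

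None of the 9 genes separated DHEA from sesame oil libraries beyond the correction for multiple testing. By the quasi-likelihood test of edgeR, 0 of 9 reached an adjusted p under 0.05, as did 0 of all 27612 genes tested (0%), and 0 of 9 met the thresholds of the study's methods (unadjusted p under 0.05 with a fold of at least 2 or at most 0.5), which 1.6% of genes tested met. C1qa, C1qb and C3 had an unadjusted p under 0.05 and were higher in the DHEA libraries, which is 3 of 9 beside 9.31% of all genes tested in either direction and 4.82% in this direction (6.85% among genes averaging 10 counts or more, as all 9 members do). With DESeq2, 6 of 9 received an adjusted p, 0 of them under 0.05, while C3, C3ar1 and C5ar1 received none. Of all 27595 genes in that fit, 153 had an adjusted p under 0.05. An unadjusted p under 0.05 was found for 2 of 9, C1qa and C1qb, beside 2267 of the 27595 genes. The fitted difference was positive for 8 of 9 genes, with a median log2 fold change of 0.25, whereas the median over all genes tested was 0.01. The DHEA and sesame oil values overlapped for 9 of 9 genes, while 7.17% of genes averaging 10 counts or more had groups that did not overlap.

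**Figure D1:**
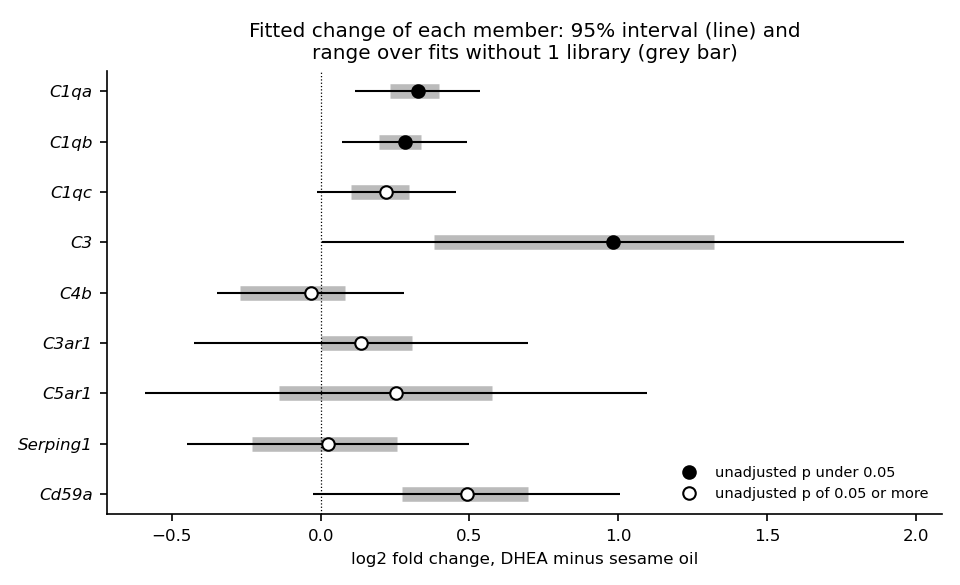
Fitted log2 fold change of each complement gene (x axis, DHEA minus sesame oil, edgeR). Lines are 95% confidence intervals and grey bars span the 8 fits that each left out 1 library. C1qa, C1qb and C3 stay above 0 on both measures. For C3 the interval begins at 0.0060 and the grey bar reaches from 0.38 to 1.32. The grey bars of C4b, C5ar1 and Serping1 cross 0.

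Per length, the members fell into 3 ranges that did not overlap in FPKM. The 3 C1q chains were the most abundant, with a level of 24.2 ± 3.57 FPKM (SD, n = 8) for C1qa, 22.6 ± 3.14 FPKM for C1qc and 21.7 ± 2.89 FPKM for C1qb. C1qa lay above C1qc in 7 of 8 libraries, and C1qc above C1qb in 7 of 8, although the ranges of neighbours overlapped. C4b (5.36 ± 1.21 FPKM), Serping1 (4.94 ± 1.39 FPKM) and Cd59a (2.47 ± 0.913 FPKM) followed. C4b exceeded Serping1 in 6 of 8 libraries, so their order was not the same in all. C3ar1 (0.429 ± 0.0928 FPKM), C5ar1 (0.354 ± 0.161 FPKM) and C3 (0.278 ± 0.213 FPKM) were the lowest, and C5ar1 exceeded C3 in only 4 of 8 libraries. C3, on which all pathways converge, had the lowest mean FPKM of the 9, though its range overlapped those of C5ar1 and C3ar1, and 12 to 142 counts per library. It was the most variable, with a 10.2-fold span between its lowest and highest CPM, against 1.62-fold to 1.65-fold for the C1q chains.

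**Figure D2:**
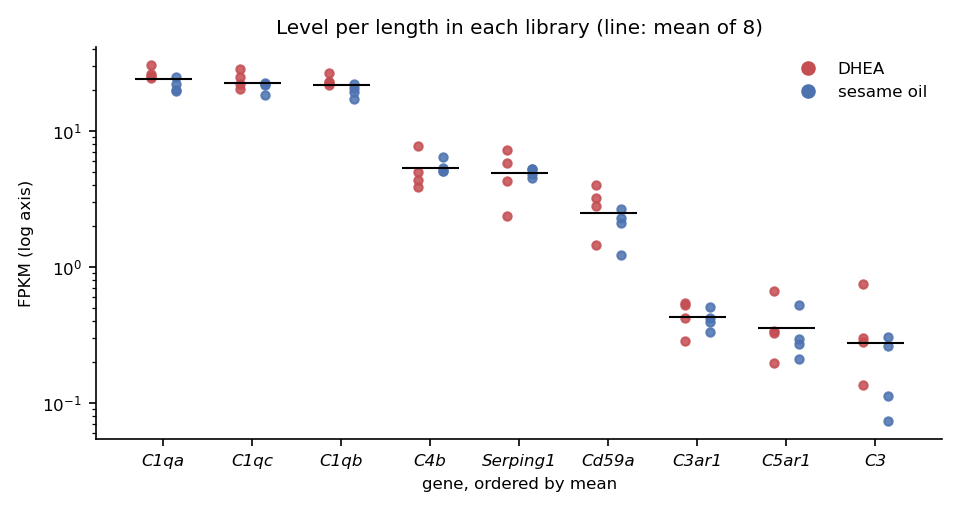
Level of each complement gene per transcript length (y axis, FPKM, log axis), ordered by the mean of the 8 libraries (line). Points are single libraries of the DHEA and sesame oil groups. The C1q chains lie at 17.1 to 30.6 FPKM, and C3ar1, C5ar1 and C3 all below 0.754 FPKM.

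C1qa, C1qb and C1qc encode the 3 chains that assemble into C1q, and RefSeq (GRCm38.p6) places them as consecutive coding genes on chromosome 4. Because the 3 genes varied together, their promoters are shown where a RefSeq promoter sequence was at hand, from 250 bases before to 50 bases after the transcript start, read 5′ to 3′ on the minus strand of GRCm38.p6. That of C1qb is chr4:136886151-136886450 and that of C1qc is chr4:136892865-136893164. Capitals mark GAGGAA, the core letters of the box bound by PU.1, a transcription factor of the myeloid lineage, or its reverse complement TTCCTC.
C1qb: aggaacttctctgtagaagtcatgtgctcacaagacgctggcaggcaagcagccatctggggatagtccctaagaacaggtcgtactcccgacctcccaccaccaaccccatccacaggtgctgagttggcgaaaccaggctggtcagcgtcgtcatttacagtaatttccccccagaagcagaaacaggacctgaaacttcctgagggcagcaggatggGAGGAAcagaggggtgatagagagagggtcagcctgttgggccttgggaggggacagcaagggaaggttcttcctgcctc
C1qc: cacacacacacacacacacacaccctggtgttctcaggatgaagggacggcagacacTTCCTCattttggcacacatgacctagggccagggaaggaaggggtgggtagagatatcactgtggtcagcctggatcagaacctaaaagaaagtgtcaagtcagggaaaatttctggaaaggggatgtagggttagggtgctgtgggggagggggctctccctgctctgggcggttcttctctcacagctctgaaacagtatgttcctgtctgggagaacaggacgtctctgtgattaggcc
The match begins 30 bases before the start of C1qb, on the strand of the gene, and 193 bases before the start of C1qc, on the other strand. These letters occurred on either strand in 9289 of 32851 promoters of this length (28.3%), and in 3 of the 6 members with a promoter sequence, the third being Cd59a. A match describes the letters and not a bound site.

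C1qa was 28.8, 34.2, 27.4 and 26.4 CPM in the DHEA libraries HipR3, HipR4, HipR7 and HipR11, and 21.6, 26.7, 21.1 and 23.9 CPM in the sesame oil libraries HipR5, HipR9, HipR10 and HipR16. A single sesame oil library, HipR9, reached into the range of the DHEA group. The fitted level was 1.25-fold higher in the DHEA libraries (95% confidence interval 1.08 to 1.45), a log2 fold change of 0.33 with a standard error of 0.0997 (edgeR adjusted p = 0.303). Exact permutation of the group names over the libraries (70 allocations, two-sided) gave p = 0.0571, where 0.0286 is the smallest p it allows. C1qb was 25.9, 30.6, 25.1 and 23.8 CPM in the DHEA libraries and 18.7, 24.1, 22.7 and 21.2 CPM in the sesame oil libraries, in the same order. Again only HipR9 exceeded the lowest DHEA library, HipR11. Its log2 fold change of 0.28 had a standard error of 0.10 (edgeR adjusted p = 0.385, exact permutation p = 0.0571). C1qc was 28.7, 33.3, 22.7 and 24.6 CPM in the DHEA libraries and 20.2, 24.8, 24.5 and 24.2 CPM in the sesame oil libraries. Here HipR7 lay below 3 of the 4 sesame oil libraries, and the log2 fold change of 0.22 had a standard error of 0.11 (edgeR adjusted p = 0.556, exact permutation p = 0.229). HipR4 held the highest value of each chain. Without HipR4, the log2 fold changes were 0.23 for C1qa, 0.20 for C1qb and 0.10 for C1qc, and C1qb no longer had an unadjusted p under 0.05, as was also so without HipR5 alone. Without both HipR3 and HipR4, they were 0.20 (edgeR adjusted p = 0.647), 0.17 (adjusted p = 0.738) and 0.0049 (adjusted p = 0.988), and neither C1qa nor C1qb had an unadjusted p under 0.05. After removal of the trend with GC content, the log2 fold changes were 0.37 for C1qa, 0.31 for C1qb and 0.25 for C1qc.

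**Figure D3:**
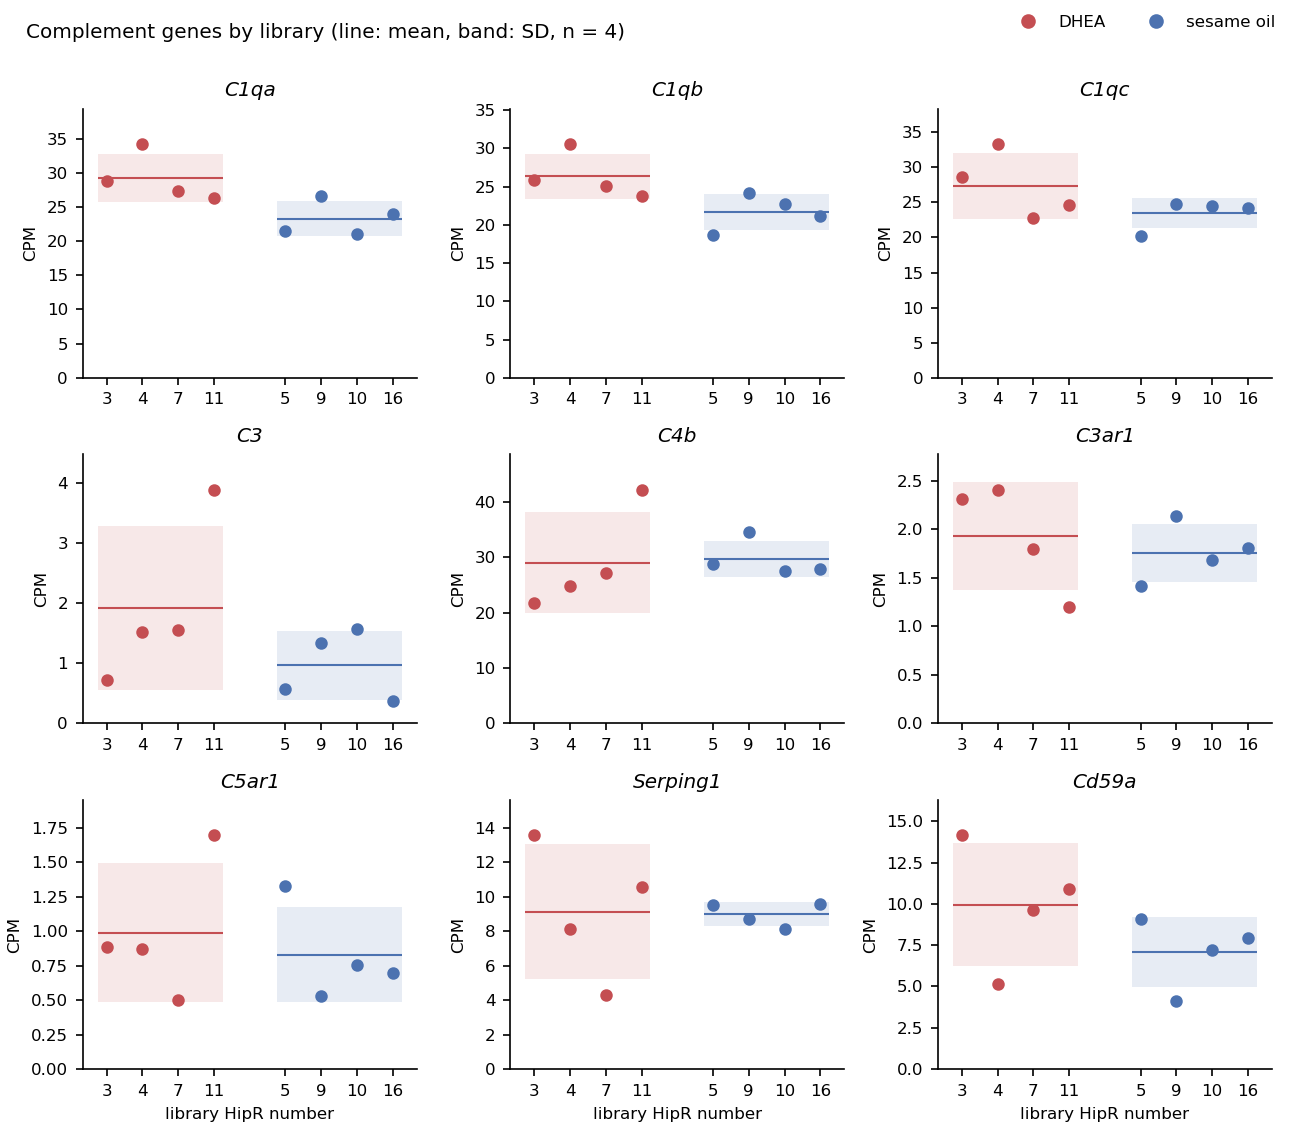
Normalized counts (y axis, CPM) of the 9 complement genes in each library (x axis, HipR number), with the group mean (line) and SD (band, n = 4). HipR4 has the highest value of each C1q chain, HipR11 the highest of C3, C4b and C5ar1, and HipR3 the highest of Serping1 and Cd59a.

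The chains kept similar proportions across libraries. The ratio of C1qa to C1qb in FPKM was 1.11 to 1.18 in 7 libraries and 0.947 in HipR10, and that of C1qc to C1qb was 0.889 in HipR7 and 1.01 to 1.13 in the others. Over the 8 libraries, log2(CPM + 0.5) of C1qa correlated with that of C1qb (Pearson r = 0.905, exact permutation p = 0.0035, adjusted p = 0.0175 over 10 relations, Spearman rho = 0.929, p = 0.00223, adjusted p = 0.0223). Without HipR4 and HipR10, the libraries farthest from the median of C1qa, r was 0.997. C1qb and C1qc also correlated (Pearson r = 0.881, exact permutation p = 0.00786, adjusted p = 0.0262, Spearman rho = 0.762, p = 0.0368, adjusted p = 0.0919), but r was 0.385 without HipR4 and HipR5, so this relation rests on those libraries. For C1qa and C1qc the values were r = 0.808 (exact permutation p = 0.0178, adjusted p = 0.0357) and rho = 0.667 (p = 0.0831, adjusted p = 0.139), and r was 0.800 without HipR4 and HipR10 (exact permutation p = 0.0611).

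C1q followed the microglial genes of the same libraries, and whether it followed these alone was not tested. The astrocyte list was also highest in HipR4 (mean log2(CPM + 0.5) 8.27) and lowest in HipR5 (7.90). The oligodendrocyte list was highest in HipR4 (8.44) and lowest in HipR16 (7.57). The relation of C1q to these 2 lists was not tested. The mean log2(CPM + 0.5) of the 3 chains correlated with that of 15 microglia markers (Pearson r = 0.958, exact permutation p = 0.000546, adjusted p = 0.00546, Spearman rho = 0.905, p = 0.00456, adjusted p = 0.0228). As deviations from the group means, r was 0.967 (exact permutation p = 0.000546). Without HipR4 and HipR5, the libraries with the highest and lowest microglial mean, r was 0.787 and the exact permutation p was 0.0597. All 15 microglia markers had a positive fitted difference, with a median log2 fold change of 0.20, and 4 of 15 (P2ry12, Fcrls and Ctss among them) passed an unadjusted p under 0.05 by edgeR, beside 9.31% of all genes tested and 13.1% of those averaging 10 counts or more. Without HipR3 and HipR4, 9 of 15 were higher, the median was 0.038 and 1 of 15 passed, beside 7.89% of all genes in that fit. The mean log2(CPM + 0.5) of the list was 4.54 and 4.84 in HipR3 and HipR4, and 4.43 and 4.33 in HipR7 and HipR11, which lay within the sesame oil range of 4.19 to 4.46. The summed level of the microglia markers was 203 to 267 FPKM in the DHEA libraries and 181 to 215 FPKM in the sesame oil libraries, and no marker was at 0 in any library. The C1q mean exceeded the microglial mean by 0.22 to 0.33 on the log2 scale in the DHEA libraries and by 0.14 to 0.23 in the sesame oil libraries, ranges that overlap. In bulk tissue, more microglia and more C1q RNA per microglial cell cannot be told apart.

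**Figure D4:**
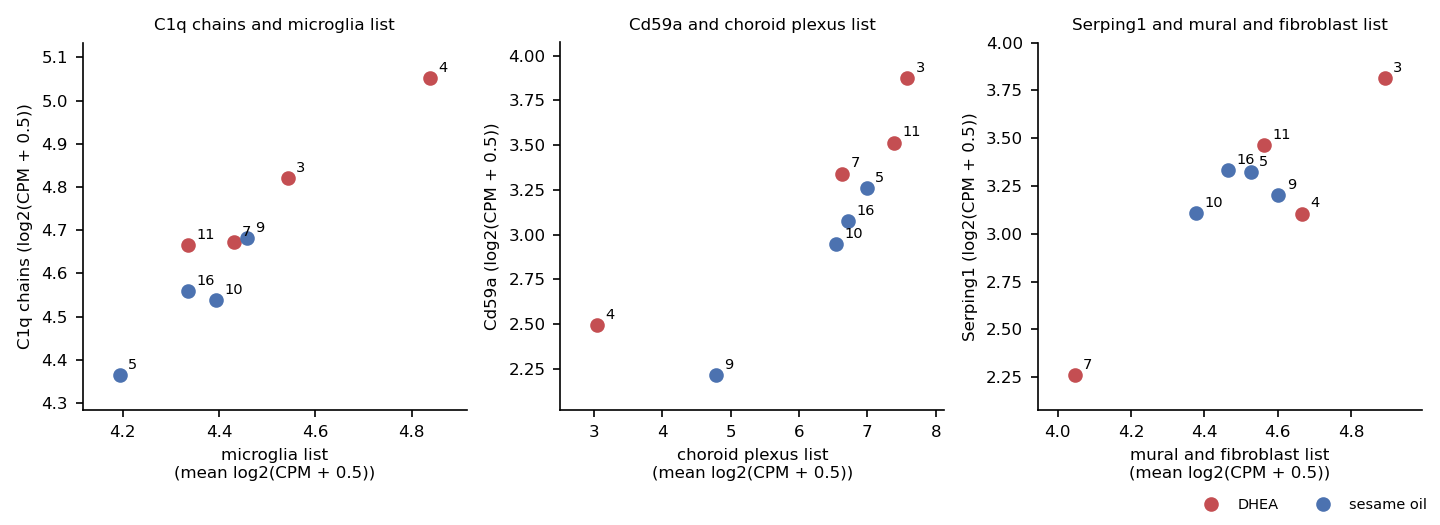
Mean log2(CPM + 0.5) of 3 marker lists (x axes) against C1q chains, Cd59a and Serping1 (y axes, log2(CPM + 0.5)), with 1 point per library labelled by its HipR number. C1q rises with the microglia list from HipR5 to HipR4, Cd59a is lowest in HipR4 and HipR9, the libraries lowest in choroid plexus genes, and the spread of Serping1 is set mainly by HipR3 and HipR7.

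C3 and C4b, the components cleaved after C1 is activated, were each highest in the same DHEA library. C3 was 0.727, 1.51, 1.55 and 3.89 CPM in HipR3, HipR4, HipR7 and HipR11, and 0.573, 1.33, 1.57 and 0.381 CPM in HipR5, HipR9, HipR10 and HipR16. Apart from HipR11, the DHEA values lay within the range of the sesame oil group. C3 was 1.98-fold higher in the DHEA libraries in the fit, a log2 fold change of 0.98 (95% confidence interval 0.0060 to 1.96, edgeR adjusted p = 0.531). Without HipR11 it was 0.38 (adjusted p = 0.715). Without HipR3 and HipR4 it was 1.48 with an unadjusted p under 0.05 (edgeR adjusted p = 0.482). Of 21 alternatives, 9 gave C3 an unadjusted p under 0.05. With all libraries the exact permutation test on CPM gave p = 0.2. C4b was 21.8, 24.8, 27.2 and 42.2 CPM in the DHEA libraries and 28.7, 34.5, 27.6 and 27.8 CPM in the sesame oil libraries. In this gene, 3 of the 4 DHEA libraries lay below every sesame oil library and HipR11 lay above them all. The log2 fold change was -0.033 (95% confidence interval -0.35 to 0.28, adjusted p = 0.960 from edgeR). Without HipR11 it was -0.27 with an unadjusted p under 0.05 (edgeR adjusted p = 0.290), and without HipR3 and HipR4 it was 0.22 (adjusted p = 0.751), so the sign depended on single libraries. C4a, a near-identical copy of C4b that RefSeq lists as a transcribed pseudogene, had no row under that symbol in the count table. Reads shared by both genes could make the level of C4b uncertain. No correlation of C4b was detected with the astrocyte markers (Pearson r = -0.136, exact permutation p = 0.744, adjusted p = 0.930, Spearman rho = -0.405, p = 0.327) or the oligodendrocyte markers (r = 0.0239, exact permutation p = 0.959, adjusted p = 0.998, rho = -0.238, p = 0.582). For C1qa and C3, r was 0.247 (exact permutation p = 0.566, adjusted p = 0.809, rho = 0.0238, p = 0.977).

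HipR11 was also the highest library for the lists of reactive astrocytes, border macrophages and leukocytes and for a pair of further complement genes, but the lowest DHEA library for the microglia list (mean log2(CPM + 0.5) 4.33) and for C3ar1. The reactive astrocyte list, 15 genes that include Lcn2 and Serpina3n, had a mean log2(CPM + 0.5) of 3.22 in HipR11 and of 2.55 to 3.01 in the others. HipR11 was likewise highest for border macrophage markers (1.43, against at most 1.20 elsewhere) and leukocyte markers (0.40, against at most 0.12 elsewhere). For the reactive astrocyte list and C3, r was 0.560 (exact permutation p = 0.151, Spearman rho = 0.333, p = 0.428), a pair examined after the values were seen, and r was 0.265 without HipR3 and HipR11. Cfb, which encodes factor B of the alternative pathway, was 1.095 CPM in HipR11 and at most 0.445 CPM elsewhere. Itgax, a subunit of complement receptor 4, was 0.931 CPM in HipR11 and at most 0.188 CPM elsewhere. The part of these lists and genes in the C3 value of HipR11 was not tested.

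The receptors for the released fragments were expressed at low levels. C3ar1 was 2.32, 2.41, 1.803 and 1.204 CPM in HipR3, HipR4, HipR7 and HipR11, and 1.42, 2.13, 1.68 and 1.81 CPM in HipR5, HipR9, HipR10 and HipR16. The DHEA group held both the highest and the lowest values, and its log2 fold change of 0.13 had a 95% confidence interval of -0.43 to 0.70 (adjusted p = 0.876 from edgeR). C3ar1 and the C1q mean had a Pearson r of 0.700 (exact permutation p = 0.0498, adjusted p = 0.0830, Spearman rho = 0.810, p = 0.0218, adjusted p = 0.0726), and r was 0.449 without HipR4 and HipR5. C5ar1 was 0.888, 0.870, 0.499 and 1.70 CPM in the DHEA libraries and 1.33, 0.534, 0.757 and 0.698 CPM in the sesame oil libraries. HipR11 and HipR5 were the highest libraries of their groups, and the log2 fold change was 0.25 (95% confidence interval -0.59 to 1.097, adjusted p = 0.837 from edgeR). With 18 to 62 counts per library, a C5ar1 difference of up to 2.14-fold lay within this interval. C5ar2, the neighbouring gene, which encodes the second C5a receptor, had a log2 fold change of 0.38 (adjusted p = 0.743 from edgeR).

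Of the regulators, Serping1 had nearly equal group means and a wider spread in the DHEA group. It was 13.6, 8.11, 4.30 and 10.5 CPM in HipR3, HipR4, HipR7 and HipR11, and 9.51, 8.72, 8.13 and 9.58 CPM in HipR5, HipR9, HipR10 and HipR16. The sesame oil libraries lay within a narrow band and the DHEA libraries on both sides of it. The means were 9.13 ± 3.92 CPM (SD, n = 4) and 8.98 ± 0.692 CPM (SD, n = 4), and the log2 fold change was 0.024 (95% confidence interval -0.45 to 0.50, adjusted p = 0.984 from edgeR). The difference in spread was not tested. Serping1 correlated with the mean of 10 endothelial markers (Pearson r = 0.8291, exact permutation p = 0.0105, adjusted p = 0.0262, Spearman rho = 0.690, p = 0.0694, adjusted p = 0.139), yet r was 0.347 without HipR3 and HipR7. With the list of mural cells and fibroblasts, a pair examined after the values were seen, r was 0.8935 (exact permutation p = 0.0114, adjusted p = 0.0228 over 4 such pairs, Spearman rho = 0.476, p = 0.243) and -0.0062 without HipR3 and HipR7. Both relations therefore rest on these libraries. Nor was a correlation detected between C4b and Serping1 (Pearson r = -0.00075, exact permutation p = 0.998, Spearman rho = 0.214, p = 0.619).

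Cd59a was 14.2, 5.13, 9.63 and 10.9 CPM in the DHEA libraries HipR3, HipR4, HipR7 and HipR11, and 9.09, 4.15, 7.21 and 7.93 CPM in the sesame oil libraries HipR5, HipR9, HipR10 and HipR16. HipR4 and HipR9 were the lowest libraries of their groups, and without HipR4 every DHEA library lay above every sesame oil library. The fitted level was 1.41-fold higher in the DHEA libraries (95% confidence interval 0.983 to 2.01), a log2 fold change of 0.49 (edgeR adjusted p = 0.553, exact permutation p = 0.257). It was 0.27 without HipR3 and 0.70 without HipR4 (adjusted p = 0.355, unadjusted p under 0.05). Without both it was 0.53, also with an unadjusted p under 0.05 (edgeR adjusted p = 0.590). HipR4 and HipR9 also had the lowest choroid plexus values. The summed level of Ttr, Kl, Folr1, Clic6 and Kcnj13, markers of the epithelium that makes cerebrospinal fluid, was 51.0 FPKM in HipR4, 352 FPKM in HipR9 and 1433 to 3074 FPKM in the other libraries. Ttr, the most abundant of them, encodes the thyroxine carrier transthyretin, and no marker was at 0 in any library. Among the other 6 libraries, Cd59a correlated with the mean of this list (Pearson r = 0.8985, exact permutation p = 0.0111, adjusted p = 0.0444), a pair examined after the values were seen. Without HipR4 and HipR9, an alternative also chosen after the values were seen, the log2 fold change of Cd59a was 0.51 with a standard error of 0.16 and an unadjusted p under 0.05 (edgeR adjusted p = 0.376). The part of choroid plexus tissue in the Cd59a values was not tested. Cd59b, the neighbouring copy, had 12 to 30 counts per library and a log2 fold change of 0.029 (adjusted p = 0.984), and reads that match both copies could have been divided between them.

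Of 56 further genes of the complement system, 52 were tested. By edgeR, 0 of them reached an adjusted p under 0.05, and 7 had an unadjusted p under 0.05, 2 higher and 5 lower in the DHEA libraries. The share of 7 in 52 stands beside 9.31% of all genes tested in either direction, and 4.49% of all genes tested were lower at this threshold. All 7 were among the 37 genes averaging 10 counts or more, where the share over all such genes was 13.1%. Without HipR3 and HipR4 the counts were 6 higher and 5 lower, beside 7.89% of all genes in that fit. Without HipR7 alone they were 5 higher and 5 lower, beside 3667 of 27264 genes in that fit. With all libraries the median log2 fold change was -0.0018, with 26 genes higher and 26 lower. C4a and Mbl1 had no row under those symbols in the count table. Colec10 and Cfi had 0 counts in every library, which allows at most 0.0953 CPM in any of them.

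No gene of the proteases that act with C1q had an unadjusted p under 0.05 (0 of 5), beside 9.31% of all genes tested. At that share, 0 called does not set lists as short as this and the next ones apart from all genes. C1rb had at most 1 count in any library. C1ra, the protease that C1q activates first and the most abundant of them, was 2.50 ± 0.522 CPM (SD, n = 4) in the DHEA libraries and 1.95 ± 0.186 CPM (SD, n = 4) in the sesame oil libraries (log2 fold change 0.36, adjusted p = 0.643). Among 6 lectin pathway genes tested, 0 had an unadjusted p under 0.05, and the serine protease gene Masp1 was the most abundant (1.46 FPKM). Mbl2 and Fcnb had at most 1 count in any library. Of 7 terminal components, C8g was the most abundant with 0.382 FPKM, Hc, the gene of C5, had 2 to 24 counts, and 0 had an unadjusted p under 0.05. C6, C8a, C8b and C9 averaged only 0.5 to 2 counts.

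Cfp, which encodes properdin, the stabilizer of the alternative pathway, had the largest difference among the 7 genes. It was 3.74, 3.79, 7.10 and 7.83 CPM in HipR3, HipR4, HipR7 and HipR11, and 10.5, 8.72, 9.0 and 9.17 CPM in HipR5, HipR9, HipR10 and HipR16. Every DHEA library lay below every sesame oil library, as in 3.53% of genes averaging 10 counts or more. The log2 fold change was -0.73, with a standard error of 0.20 (edgeR adjusted p = 0.275, exact permutation p = 0.0286). It was lowest in HipR3 and HipR4, and without both the log2 fold change was -0.33 (adjusted p = 0.563).

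The receptors and soluble regulators included the 2 genes that were higher. Itgam, the alpha chain of complement receptor 3 through which microglia bind C3 fragments, was 26.9, 30.8, 26.3 and 23.6 CPM in HipR3, HipR4, HipR7 and HipR11, and 19.3, 25.0, 21.4 and 19.5 CPM in HipR5, HipR9, HipR10 and HipR16. As for C1qa and C1qb, HipR9 was the only sesame oil library above the lowest DHEA library. Its log2 fold change was 0.34, with a standard error of 0.10 (edgeR adjusted p = 0.297), and 0.22 (adjusted p = 0.647) without HipR3 and HipR4. Itgb2, the beta chain of the same receptor, had a log2 fold change of 0.31 (adjusted p = 0.585). Clu, the gene of clusterin, an inhibitor of the terminal complex that astrocytes express strongly, was the most abundant gene of the list (360 FPKM). It was 829 to 866 CPM in the DHEA libraries and 726 to 785 CPM in the sesame oil libraries, without overlap, as in 3.63% of genes averaging 10 counts or more (log2 fold change 0.14, edgeR adjusted p = 0.456). Of the astrocyte markers, 9 of 10 were higher and 6 of 10 had an unadjusted p under 0.05, beside 4.82% of all genes tested that were higher, with a median log2 fold change of 0.17. Without HipR3 and HipR4, 3 of 10 passed, beside 7.89% of all genes in that fit, and the median was 0.15. C1qbp, a mitochondrial C1q-binding protein and the most abundant of the receptor genes (34.3 FPKM), had a log2 fold change of 0.074 (adjusted p = 0.742). Cr1l, or Crry, the broad C3 regulator of rodent membranes (8.997 FPKM), had one of -0.011 (adjusted p = 0.984).

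Of 8 genes for neuronal membrane or secreted proteins that inhibit complement, 3 had an unadjusted p under 0.05 and were lower in the DHEA libraries, beside 4.49% of all genes tested. They were Sez6l, Sez6 and Csmd2, which encode proteins with the CUB and sushi domains found in complement regulators. Sez6l was 316, 281, 299 and 302 CPM in HipR3, HipR4, HipR7 and HipR11, and 361, 336, 354 and 329 CPM in HipR5, HipR9, HipR10 and HipR16. The groups did not overlap, and the log2 fold change of -0.20 had an adjusted p = 0.293 from edgeR and an adjusted p = 0.0418 from DESeq2. Sez6 also had groups without overlap (124 to 158 CPM and 159 to 170 CPM), with a log2 fold change of -0.22 (edgeR adjusted p = 0.341). The log2 fold change of Csmd2 was -0.29 (adjusted p = 0.402), and -0.077 (adjusted p = 0.786) without HipR3 and HipR4. Sez6l2, the most abundant of the 8 (52.4 FPKM), had a log2 fold change of -0.0095 (95% confidence interval -0.14 to 0.12). Nptx1, a neuronal pentraxin related to the C1q-binding pentraxins of plasma, was lower by the unadjusted p alone (log2 fold change -0.14, adjusted p = 0.503). Of the neuronal markers, 5 of 10 were higher and 5 of 10 lower, with a median log2 fold change of -0.014, and 1 of 10, Rbfox3, had an unadjusted p under 0.05 (log2 fold change -0.16, adjusted p = 0.348, groups without overlap). Without HipR3 and HipR4, 9 of 10 were lower and the median was -0.077. In that fit 3 of 10 passed, beside 7.89% of all genes.

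**Figure D5:**
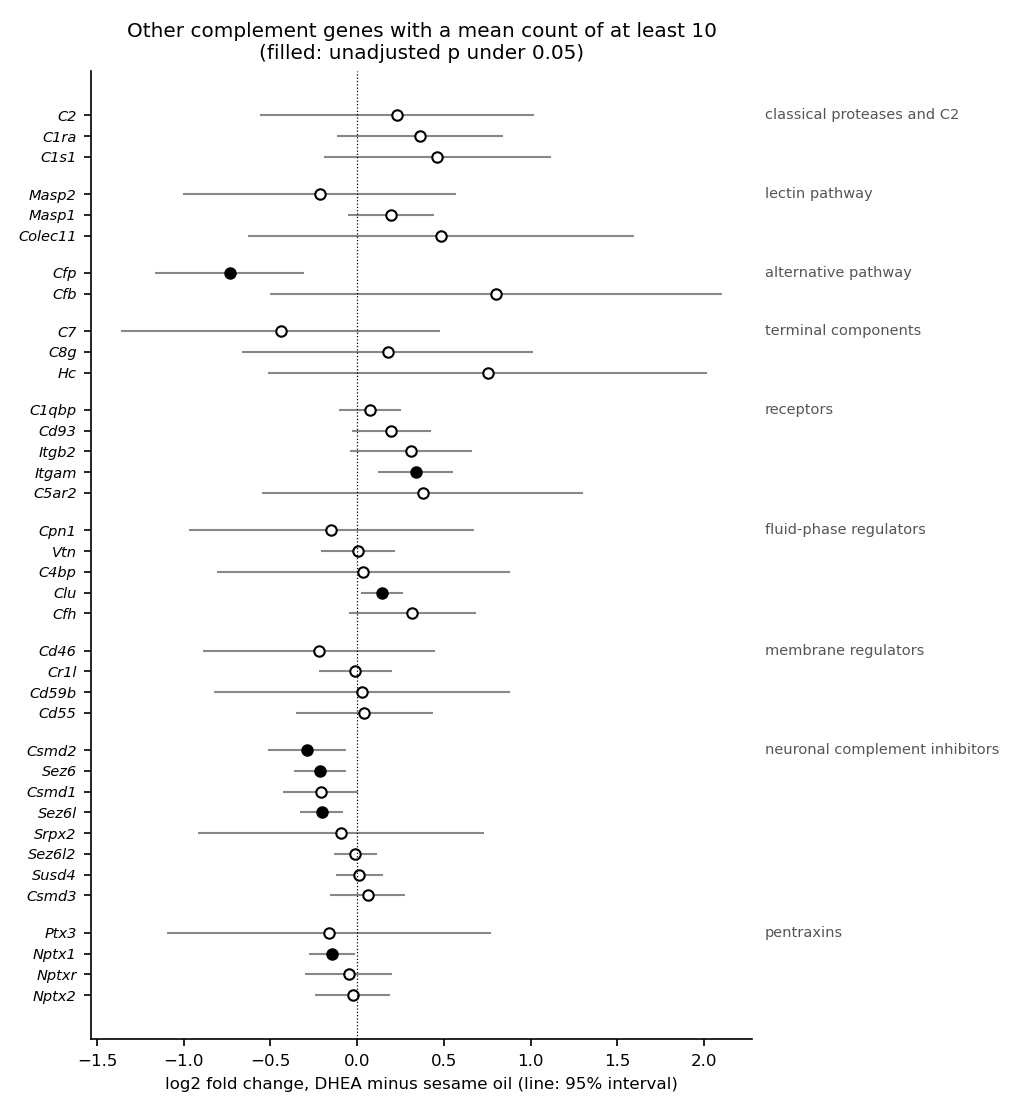
Fitted log2 fold change (x axis, DHEA minus sesame oil, edgeR) of the 37 further complement genes averaging 10 counts or more, grouped by role (right). Lines are 95% confidence intervals and filled points have an unadjusted p under 0.05. Of the 7 filled points, Itgam and Clu lie above 0, and Cfp, Csmd2, Sez6, Sez6l and Nptx1 below.

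Markers of the cells that could carry complement RNA differed in how they compared between the groups, and the counts below stand beside 9.31% of all genes tested with an unadjusted p under 0.05 (13.1% of those averaging 10 counts or more). Beside microglia and astrocytes, oligodendrocyte markers were higher for 10 of 10 genes, all with an unadjusted and 0 with an adjusted p under 0.05 by edgeR (median log2 fold change 0.39). Endothelial markers were higher for 5 of 10, with 3 of 10 at an unadjusted p under 0.05, and the median was 0.01 (most abundant Slc2a1, the glucose transporter of the blood-brain barrier). Of the border macrophage markers, 5 of 7 were higher and 1 of 7, Mrc1, had an unadjusted p under 0.05 (median 0.39), while their summed level was only 2.2 to 7.1 FPKM. Leukocyte markers summed to 2.8 to 11.8 FPKM, with up to 3 of 10 genes at 0 in a library, and 2 of 10 had an unadjusted p under 0.05 (median 0.18, and 0.014 without HipR3 and HipR4). Interferon-induced genes, which often accompany complement in inflamed tissue, were higher for 10 of 10, with 0 of 10 at an unadjusted p under 0.05 (median 0.25). The reactive astrocyte list had 12 of 15 genes higher and 3 of 15 (Lcn2, Osmr and Iigp1) with an unadjusted p under 0.05 (median 0.23). Choroid plexus markers had a median of 0.43, red blood cell markers 0.08, and mural and fibroblast markers 0.05, with 0 of 5, 0 of 5 and 1 of 8 genes at an unadjusted p under 0.05. Without HipR3 and HipR4, 7 of 10 oligodendrocyte genes passed the unadjusted threshold, beside 7.89% of all genes in that fit, and their median was 0.30. The median in that fit was 0.032 for reactive astrocytes, 0.070 for interferon-induced genes, 0.20 for border macrophages and 0.57 for the choroid plexus. It was negative for endothelium (-0.069), mural cells and fibroblasts (-0.12) and red blood cells (-0.57).

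Among the genes whose profile over the 8 libraries was most like the mean of the C1q chains, of 12774 genes averaging 100 counts or more, were Pggt1b, Lrrc40, Dock1 and Papss2 (Pearson r 0.977 to 0.989, Spearman rho 0.929 to 1). Altogether 259 genes had an r above 0.9, and these values describe the highest of many, with no test. Those most like C4b were Carns1, Anks1 and Cyth1 (r 0.945 to 0.950, rho 0.738 to 0.929). Those most like Serping1 were Col1a2, a fibrillar collagen gene, Cdh5, the cadherin of endothelial junctions, and Vps53 (r 0.961 to 0.988, rho 0.690 to 0.905).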

How the data were processed

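Per the labels and methods, total RNA was extracted with TRIzol, the molecule is given as polyA RNA, libraries were made with the VAHTS Universal V6 kit, and 150 bp paired-end reads were sequenced. The authors removed low-quality reads, aligned with HISAT2 and deposited counts per gene from HTSeq-count, without normalization. The submitters' processing notes also name fastp and the build GRCm39. Versions, annotation and strand setting are not given in the sources used here. The deposited FPKM values, calculated by the authors, equalled the counts divided by the library total and 1 length per gene (within 0.1% for 25234 of 25234 genes with counts in at least 2 libraries).

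Counts were normalized by TMM and tested with the quasi-likelihood test of edgeR 4.0.16 in R 4.3.3 on the 27612 genes with any count, with Benjamini-Hochberg adjustment over all of them (prior count 0.125). The standard error was the log2 fold change divided by the square root of F. DESeq2 1.42.0 and limma 3.58.1 (limma-trend on log2(FPKM + a pseudocount of 1 or 0.1)) were alternatives, with RLE, filters of at least 10 counts and filterByExpr, a prior count of 1, robust moderation, thinning to the smallest total and leaving out libraries. Removal of the GC trend (lowess, span 0.3, GENCODE vM21 transcripts, 92.7% of genes averaging 10 counts or more), leaving out HipR4 with HipR9, and the marker lists without HipR3 and HipR4 were chosen after the values were seen. The fits were tested on simulated data, in which edgeR made more false calls than the nominal rate of its adjusted p. Whether differences as small as those of the C1q chains would be recovered was not tested. Correlations were computed on log2(CPM + 0.5), with p from the 40320 pairings of 8 libraries or the 720 pairings of 6 libraries (exact permutation test). The p-values of the group comparisons set a difference against the spread between mice, which edgeR estimates with information shared across genes. Those of the correlations compare r with its values over the pairings of libraries.

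The members and lists were chosen with earlier results of these data known. Named were the members, further complement genes with an unadjusted p under 0.05, groups without overlap or the highest FPKM of their role, the copies C4a and Cd59b, the most abundant marker of a list, and the genes with the most similar profiles. C5ar2, Itgb2, Itgax, Cfb, Hc and the remaining markers, Rbfox3 included, were named after their values were seen. RefSeq also gave the chromosome and the order of neighbouring genes. No RefSeq coordinates other than those of promoters were printed, since the builds differ. Some genes that this rule names are not reported here.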

Additional observations from a re-analysis of the deposited data

Results flagged for a closer look

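In 5 of 58 groups of 4 libraries, 1 library lay far from the others by Dixon's ratio, the gap to its neighbour as a share of the whole span, and about 1 in 20 would do so by chance. C1qc was 20.2 CPM in HipR5 and 24.2 to 24.8 CPM in the other sesame oil libraries (ratio 0.876). C4b was 34.5 CPM in HipR9 and 27.6 to 28.7 CPM in the other sesame oil libraries (ratio 0.835). Clu was 726 CPM in HipR10 and 777 to 785 CPM in the other sesame oil libraries (ratio 0.85). The mean log2(CPM + 0.5) of the endothelium list was 4.64 in HipR7 and 4.98 to 5.01 in the other DHEA libraries (ratio 0.911). On the first principal component HipR9 was at -3.62 and the other sesame oil libraries at -10.04 to -9.95 (ratio 0.986). The value of C4b in HipR11 did not reach this ratio.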

How the results depend on the processing

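The 9 log2 fold changes were recomputed under 21 alternatives each. None of the adjusted p values obtained was under 0.05 (DESeq2 gave none for C3, C3ar1 and C5ar1), and the sign held in 175 of 189 values. C1qa, C1qb, C1qc, C3 and Cd59a kept a positive sign in all. Signs turned for C4b (0.22 without HipR3 and HipR4, 0.11 without HipR4 and HipR9), C3ar1 (-0.23 without HipR3 and HipR4) and Serping1 (-0.28 without HipR3 and HipR4, -0.080 with limma-trend on log2(FPKM + 1) with and without a minimum of 0.1 FPKM, -0.12 on log2(FPKM + 0.1)). Leaving out each library gave -0.27 to 0.082 for C4b, -0.14 to 0.57 for C5ar1 and -0.23 to 0.26 for Serping1. The causes were not tested.

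Genes with an adjusted p under 0.05 numbered 0 (2571 unadjusted), 153 with DESeq2, 4 with robust moderation, 1 with limma-trend at a minimum of 0.1 FPKM, 1 without HipR3 and HipR4, 12 without HipR4 and HipR9, and 0 to 93 with each library left out, the highest without HipR7. Genes meeting the thresholds of the methods (unadjusted p under 0.05 and a fold of at least 2 or at most 0.5) numbered 442, 164 with DESeq2, 284 with at least 10 counts, 62 with filterByExpr, 1, 48 and 2 with limma-trend on log2(FPKM + 1), log2(FPKM + 0.1) and at the minimum FPKM, and 253 after removal of the GC trend. Of the further complement genes, 1 (Sez6l) had an adjusted p under 0.05 with DESeq2 and 0 to 1 with each library left out. Those higher at an unadjusted p under 0.05 numbered 2, 1 in each limma-trend fit, 6 without HipR3 and HipR4, 5 without HipR4 and HipR9, and 1 to 5 with each library left out. As deviations from the group means, r was -0.214 for C1qa and C3. Without the 2 libraries farthest from the median of x, r was 0.124 for astrocyte markers and C4b, 0.243 for C4b and Serping1, and -0.0062 for mural and fibroblast markers and Serping1.

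Genes with fewer than 10 counts per library, such as Cfb and Hc in some libraries, carry large counting errors. No paired analysis was possible because the labels give no pairing between libraries of the DHEA and sesame oil groups.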
